A study of Mus musculus with 12 samples.

Results

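The arrays describe how bone marrow-derived macrophages (BMDMs) with a deletion that blocks selenoprotein synthesis answered 4 h of lipopolysaccharide (LPS), the outer membrane glycolipid of Gram-negative bacteria. They are the 3 arrays of LPS-stimulated and the 3 of unstimulated ΔTrspM cells, 6 of the 12 arrays of the series, and were chosen by their labels alone. Knockout cells came from female c57bl6 mice of the genotype Trspfl/fl-LysM-Cre+/-, in which Cre removes the floxed gene of the selenocysteine tRNA in cells that use the lysozyme M promoter. The control mice, of the genotype Trspfl/fl-LysM-Cre-/-, carried the same floxed alleles without Cre and gave the other 6 arrays, again 3 unstimulated and 3 after LPS. All cultures had been differentiated for 7 days with M-CSF, the growth factor of macrophages. Neither the age of the mice nor the dose of LPS given to these cultures is stated in the sources used here. Lysozyme M is active in other myeloid leukocytes besides macrophages, and the study's text allows for some non-macrophage or undeleted cells in such cultures. The labels call the 3 arrays of each group biological replicates without saying whether they were separate mice. Each p-value rests on the spread within groups of 3 arrays, pooled over ΔTrspM and control groups, and part of that spread may be technical.

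LPS is recognised by Toll-like receptor 4 (TLR4) with its partners CD14 and MD-2. The adaptor MyD88 carries the signal to NF-κB and the MAP kinases, which switch on cytokine and chemokine genes, and the adaptor TRIF carries it to interferon-β, which acts back on the cell to switch on interferon-stimulated genes. Feedback inhibitors induced by the same signal then limit it, and the macrophage leaves the cell cycle. Selenoproteins carry selenocysteine, which the ribosome inserts at a UGA codon with the tRNA that *Trsp* encodes. Several of them, such as glutathione peroxidases and thioredoxin reductases, remove peroxides or reduce oxidized proteins.

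Each gene is given as log2(normalized signal + 16), written below as its log2 signal, in replicates 1, 2 and 3. The scale runs from 4 for no signal to 14.25 for the brightest probe set, and it understates the change of genes that are dim in a group. A gene was called when limma, fitted to all 12 arrays with Benjamini-Hochberg adjustment over 18193 genes, gave an adjusted p under 0.05. Log2 fold changes are given as the estimate ± its standard error where an adjusted p follows (n = 3 arrays in each group). The standard error pools the spread of ΔTrspM and control arrays, so it is not the spread of ΔTrspM cultures alone. For *Mx1* it was 0.92. The standard deviations of *Mx1* were 0.34 and 0.13 in unstimulated and stimulated ΔTrspM cells and 2.59 in unstimulated control cells. The macrophage identity of the cultures was plain in the markers: *Csf1r*, the receptor of M-CSF, had a log2 signal of 13.62, 13.72 and 13.78 in unstimulated ΔTrspM cells and *Adgre1*, which encodes F4/80, had 13.58, 13.58 and 13.38. *Lyz2*, the lysozyme M gene, had 13.62, 13.69 and 13.64 without LPS and 13.66, 13.99 and 13.68 with it. *Trsp* was not analysed here, and nothing on these arrays tests the deletion itself. The array of LPS-stimulated ΔTrspM replicate 2 was dim, with a mean signal of 199.7 and 47.7% of probe sets under 16, against 492 to 861 and 16.1% to 28.8% on the other 11. Marker lists of T, B and NK cells (10 genes measured), mast cells and basophils (8), red cell precursors (5) and endothelium (7) stayed near the bottom of the scale, with 7, 6, 4 and 5 members at a mean under 6 in unstimulated cells. Neutrophil markers were present, and their summed log2 signal ranged from 12.45 to 13.45 in unstimulated cells and from 13.11 to 14.30 after LPS. In bulk RNA, fewer cells of a type and less RNA per cell cannot be told apart.

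Some promoters of the strongest responders hold letters that NF-κB or interferon-activated factors are known to bind. Of the 12 genes with the largest rise, 9 have a promoter entry in RefSeq (GRCm38.p6), and in the 250 bases before their start sites 2 held the κB motif GGGANTTTC and 3 the core of the interferon-stimulated response element, GAAANNGAA, each searched on both strands. *Cxcl9* held both, and the promoters of *Il1a*, *Shisa3*, *Il12b*, *U90926* and *Oasl1* held neither. The 3 genes of largest rise with such a match are printed 5′ to 3′ on the strand of the gene, with the matches in capitals and the last base just before the start site. *Il6* lies on the + strand (chr5:30012864-30013113), *Ifit1* on the + strand (chr19:34640639-34640888) and *Calhm6* on the - strand (chr10:34127973-34128222).

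Il6: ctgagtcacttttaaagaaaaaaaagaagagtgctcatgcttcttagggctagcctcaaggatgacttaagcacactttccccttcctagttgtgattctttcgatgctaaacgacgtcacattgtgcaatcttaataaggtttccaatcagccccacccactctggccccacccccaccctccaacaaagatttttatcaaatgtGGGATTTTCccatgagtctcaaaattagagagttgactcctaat

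Ifit1: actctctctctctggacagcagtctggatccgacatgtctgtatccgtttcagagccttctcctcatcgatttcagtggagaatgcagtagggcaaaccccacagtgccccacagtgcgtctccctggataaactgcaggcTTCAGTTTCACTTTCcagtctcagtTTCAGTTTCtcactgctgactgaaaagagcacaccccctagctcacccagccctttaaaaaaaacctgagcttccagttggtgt

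Calhm6: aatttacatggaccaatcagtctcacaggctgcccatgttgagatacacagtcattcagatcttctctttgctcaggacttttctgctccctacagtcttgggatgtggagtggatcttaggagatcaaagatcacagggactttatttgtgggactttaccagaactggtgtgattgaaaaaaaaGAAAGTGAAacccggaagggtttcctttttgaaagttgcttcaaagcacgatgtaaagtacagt

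Counted from the start site, the *Il6* match lies at −44 to −36 and that of *Calhm6* at −64 to −56. *Ifit1* has 3 matches on the reverse strand, at −109 to −101, −103 to −95 and −84 to −76, of which the first pair overlap. Over all 32851 promoter entries of this length, 0.941% held the κB letters and 7.13% the response element core, and of the 14452 tested genes with an entry 1.11% and 7.51% did. Of the genes called higher in ΔTrspM cells, 25 of 1064 with an entry (2.35%) held the κB letters and 129 (12.1%) the response element core. Of the genes called lower, 1 of 1247 (0.0802%) and 85 (6.82%) did. These shares describe letters in a window and name no bound site.

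The families that rose differed in how often they held these letters. Of the 5 CXC chemokine genes with a promoter entry, 4 held the κB letters, and of 17 interferon-stimulated genes 10 held the response element core. The κB letters were in 0 of 6 CC chemokine promoters, in 1 of 6 of the list of interleukin-6, interleukin-10, interleukin-12 and interferon-β genes, in 2 of 8 of the NF-κB list and in 1 of 13 of the feedback inhibitors, and the response element core was in 1, 0, 2 and 3 of these. Windows of 49 bases around the match are shown for these 4 chemokines and, of the interferon-stimulated genes other than *Ifit1*, for the 4 of largest rise with a match. *Cxcl1*, *Cxcl2* and *Cxcl3*, which are neighbours on chromosome 5, carry GGGAATTTC in the direction of the gene. *Cxcl9* and all 4 interferon-stimulated genes carry their match on the reverse strand. Where a promoter held several matches, the match nearest to the start is in capitals.

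Cxcl1: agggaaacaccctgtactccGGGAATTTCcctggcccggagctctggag

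Cxcl2: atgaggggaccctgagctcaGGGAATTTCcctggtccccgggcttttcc

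Cxcl3: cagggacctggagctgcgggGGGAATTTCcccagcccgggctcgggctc

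Cxcl9: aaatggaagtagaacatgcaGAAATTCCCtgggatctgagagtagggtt

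Gbp2: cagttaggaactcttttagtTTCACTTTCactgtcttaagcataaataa

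Gbp3: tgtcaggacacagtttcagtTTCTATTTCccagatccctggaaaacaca

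Ifit3: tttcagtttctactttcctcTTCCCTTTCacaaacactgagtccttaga

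Rsad2: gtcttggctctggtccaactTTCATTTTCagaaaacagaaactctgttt

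The positions of these windows are chr5:90891154-90891202 for *Cxcl1*, chr5:90903782-90903830 for *Cxcl2* and chr5:90786008-90786056 for *Cxcl3*, all on the + strand. *Cxcl9* is on the - strand at chr5:92328205-92328253. The windows of *Gbp2* (chr3:142620585-142620633), *Gbp3* (chr3:142559986-142560034) and *Ifit3* (chr19:34583407-34583455) are on the + strand, and that of *Rsad2* (chr12:26456543-26456591) on the - strand.

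LPS changed the ΔTrspM transcriptome in both directions, but its strongest effects were rises. In ΔTrspM macrophages 1326 genes (7.29% of those tested) were higher after LPS and 1548 (8.51%) were lower. Among the called genes, 440 rose and 211 fell by at least 4-fold, 88 rose and 5 fell by at least 16-fold, and 23 rose and 0 fell by at least 64-fold. For 1320 of the rises all 3 LPS arrays lay above all 3 unstimulated arrays, and for 1542 of the falls they lay below. With 3 arrays a group a call itself favours such separation, so these counts are no separate support. The share of all genes so separated was not counted. The median log2 fold change over all genes was −0.03. Same-numbered cultures deviated from their group means together, and a fit that took this number as a block called 1689 genes higher and 2397 lower. The count of falls depended on single arrays: it was 801, 1011 and 936 without unstimulated ΔTrspM replicate 1, 2 and 3, and 975 without the dim array of LPS-stimulated replicate 2. Of the 197 called genes on the lists described below, 33 were not called without the dim array, 28 to 37 without an unstimulated ΔTrspM array and 0 with the block, and under none of these did a sign turn. Without the dim array 1129 genes were called higher, and 1000 of the 1326 rises and 907 of the 1548 falls were still called. The balance depended on scaling: 46.1% of the calls were rises with quantile normalization, 33.0% with each array centred on its median and 7.88% with no scaling, where the median of all genes fell by 0.73 on the log2 scale.

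The 12 largest rises in ΔTrspM cells were mostly cytokines, interferon-stimulated genes and surface proteins. *Il6*, which encodes interleukin-6, had 5.96, 6.49 and 5.06 in unstimulated and 14.02, 14.02 and 14.13 in stimulated cells, a log2 fold change of 8.22 ± 0.40, adjusted p = 9.06e-07. Every LPS array was within 0.25 of the top of the scale, so the signal of *Il6* had little room to rise further. *Il1a* encodes interleukin-1α, which cells release when damaged; it had 5.94, 6.40 and 5.13 before and 13.24, 13.66 and 13.46 after LPS (log2 fold change 7.63). *Shisa3*, which encodes a transmembrane adaptor protein, had 4.91, 5.09 and 5.55 without LPS and 12.37, 12.85 and 12.64 with it (log2 fold change 7.44). *Il12b*, the subunit shared by interleukin-12 and interleukin-23, had 5.75, 5.94 and 6.09 in unstimulated and 12.94, 13.12 and 13.21 in stimulated cells (log2 fold change 7.17). None of the unstimulated arrays reached 7 for these 4 genes and none of the LPS arrays was under 12.

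*Cd69*, an early activation marker of leukocytes, had 6.20, 6.13 and 6.03 before and 13.33, 12.55 and 13.39 after LPS (log2 fold change 6.97). *Calhm6*, of the calcium homeostasis modulator family, had 6.08, 5.32 and 4.51 without LPS and 12.43, 11.95 and 11.78 with it (log2 fold change 6.75). *U90926* had 4.49, 4.71 and 4.39 in unstimulated and 10.97, 12.38 and 10.31 in stimulated cells (log2 fold change 6.69), and its highest LPS value was that of replicate 2. *Cxcl9*, which attracts activated T cells, had 4.31, 4.59 and 4.68 before and 11.65, 10.75 and 11.18 after LPS (log2 fold change 6.67). *Ifit1*, which binds foreign RNA, had 6.80, 7.60 and 6.27 without LPS and 13.62, 13.67 and 13.64 with it (log2 fold change 6.75), and the dynamin-like GTPases *Mx1* and *Mx2* rose by 6.63 and 6.58. *Oasl1*, of the oligoadenylate synthetase-like family, had 6.45, 7.49 and 6.62 in unstimulated and 13.51, 13.50 and 13.38 in stimulated cells (log2 fold change 6.61). Unstimulated replicate 2 was the highest of its group for *Ifit1*, *Mx1*, *Mx2* and *Oasl1*, and still lay more than 5 log2 units under the lowest LPS array.

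The 12 largest falls included a glycan enzyme, receptors and genes of DNA replication. *Gcnt1*, which branches O-linked glycans, had 11.68, 11.92 and 11.59 before and 7.75, 5.94 and 7.53 after LPS, a log2 fold change of −4.66 ± 0.51, adjusted p = 0.000168. *Cdca7*, a nuclear protein whose gene is a target of MYC, had 9.29, 8.87 and 8.97 without LPS and 4.52, 4.73 and 4.18 with it (log2 fold change −4.57). *Sesn1*, a sestrin that restrains mTORC1, had 11.14, 11.03 and 11.13 in unstimulated and 7.07, 5.65 and 7.51 in stimulated cells (log2 fold change −4.35). For *Gcnt1* and *Sesn1* the lowest LPS value was that of the dim array, and the other LPS arrays alone lay more than 3 log2 units under every unstimulated array.

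*Cnr2*, the cannabinoid receptor of immune cells, had 9.73, 9.58 and 9.56 before and 6.03, 5.82 and 4.15 after LPS (log2 fold change −4.29). *Cd300lb*, an activating receptor of myeloid cells, had 12.92, 13.10 and 12.74 without LPS and 8.72, 9.01 and 8.32 with it (log2 fold change −4.24). *Otulinl*, a relative of the deubiquitinase OTULIN, had 11.85, 11.66 and 12.02 in unstimulated and 8.56, 8.36 and 8.31 in stimulated cells (log2 fold change −3.44), with the smallest standard error of these falls (0.18). *Snx24*, a sorting nexin, fell by 3.65 and *Depdc7* by 3.59 on the log2 scale. The replication genes among the 12 were *E2f2*, an E2F transcription factor (log2 fold change −3.59), *Dtl*, a ubiquitin ligase adaptor of replicating cells (log2 fold change −3.58), *Pole2*, a subunit of DNA polymerase ε (log2 fold change −3.49), and *Esco2*, which acetylates cohesin (log2 fold change −3.40). Replicate 2 was the lowest unstimulated array for all 4 of them, at 8.71 for *E2f2* and 6.91 for *Esco2*. The 12 were picked among called genes whose groups did not overlap, so their separation is part of the choice.

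**Figure D1:**
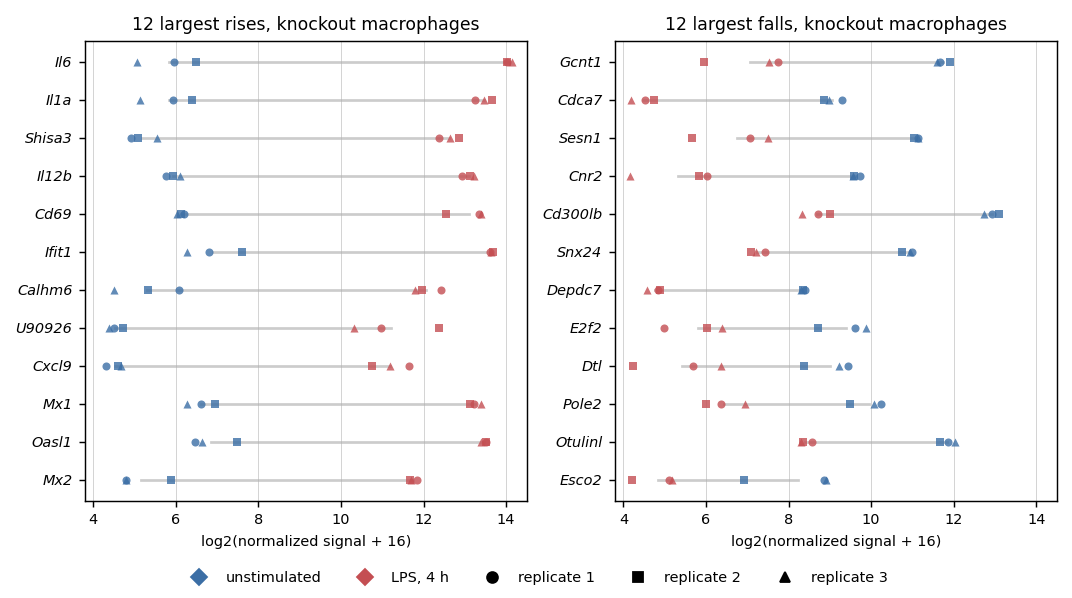
Log2 signal (horizontal axis, log2 of normalized signal plus 16) of the 12 largest rises and the 12 largest falls in ΔTrspM macrophages; each symbol is an array, its shape gives the replicate, colour separates unstimulated (blue) from LPS (red), and grey bars join the group means. *Il6* ran from 5.06 to 6.49 without LPS and from 14.02 to 14.13 with it. The 24 genes were picked among called genes whose groups did not overlap.

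The secreted mediators were higher in almost every case. All 8 CXC chemokine genes measured were called higher, with a median log2 fold change of 5.41 against −0.03 for all genes, and 8 of 10 CC chemokine genes were (median 3.48). *Cxcl1*, which recruits neutrophils, had 7.22, 8.41 and 7.10 before and 13.87, 14.10 and 13.85 after LPS (log2 fold change 6.37). *Cxcl2*, another neutrophil attractant, was already at 10.15, 12.05 and 10.44 without LPS and reached 14.04, 14.22 and 13.95 (log2 fold change 3.19 ± 0.77, adjusted p = 0.017); it was not called without the dim array, and neither was *Cxcl16*. *Cxcl11* (log2 fold change 5.30), a T cell attractant, was lowest after LPS on the dim array, at 9.91. *Cxcl5*, another neutrophil attractant, had a log2 fold change of 2.58, and its highest LPS array was at 7.99.

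*Ccl4*, which attracts monocytes and T cells, had 8.95, 9.01 and 9.16 without LPS and 13.41, 13.90 and 13.45 with it (log2 fold change 4.54 ± 0.21, adjusted p = 4.79e-07). *Ccl22* (log2 fold change 5.71) and *Ccl17* (log2 fold change 3.78), ligands of CCR4 on regulatory and helper T cells, and *Ccl3* (log2 fold change 4.10) rose as well. *Ccl5* had 7.26, 8.10 and 6.90 in unstimulated and 13.48, 13.78 and 13.68 in stimulated cells (log2 fold change 6.23). The CC chemokines that were not called were *Ccl6* and *Ccl9*, at log2 fold changes of −0.05 and 0.32; *Ccl9* was above 13 on every array. Without unstimulated replicate 2, 6 CC chemokines were called.

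All 9 genes of the interleukin-6, interleukin-10 and interleukin-12 families with interferon-β were called higher, and their median log2 fold change was 4.04. *Il12a*, the second subunit of interleukin-12, had 5.45, 4.62 and 6.07 before and 9.98, 11.12 and 11.03 after LPS (log2 fold change 5.33). *Il23a*, which pairs with the *Il12b* product in interleukin-23, had 4.66, 4.23 and 5.55 without LPS and 8.69, 9.18 and 9.13 with it (log2 fold change 4.19). *Il10*, which restrains inflammation, had 8.92, 8.76 and 7.77 in unstimulated and 12.01, 11.56 and 11.01 in stimulated cells (log2 fold change 3.05). *Ifnb1*, the interferon-β gene, had 5.89, 5.75 and 5.88 before and 10.38, 9.24 and 10.02 after LPS (log2 fold change 4.04 ± 0.34, adjusted p = 3.29e-05), and its lowest LPS value was on the dim array. Of the interleukin-1 family and inflammasome, 8 of 11 genes rose (median 2.33). *Il1b* had 7.11, 7.93 and 7.15 without LPS and 13.86, 14.08 and 13.90 with it (log2 fold change 6.55 ± 0.61, adjusted p = 6.81e-05), the inflammasome sensor *Nlrp3* rose by 3.38 and *Casp4*, the cytosolic LPS sensor, by 3.65. *Pycard*, the inflammasome adaptor ASC, was the single member called lower, at 12.25, 12.21 and 12.26 in unstimulated and 11.69, 10.97 and 11.31 in stimulated cells (log2 fold change −0.91 ± 0.28, adjusted p = 0.04997), and it was not called without the dim array.

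In the TNF superfamily and growth factor list 10 of 13 genes rose and 0 fell (median 3.29). *Tnf* had 9.93, 10.87 and 10.15 before and 13.82, 14.06 and 13.79 after LPS (log2 fold change 3.57 ± 0.40, adjusted p = 0.000214). *Csf2*, the gene of GM-CSF, had 4.63, 4.39 and 4.75 without LPS and 10.76, 10.73 and 10.33 with it (log2 fold change 6.02), and *Edn1*, the vasoconstrictor endothelin-1, had 6.47, 4.61 and 4.53 in unstimulated and 11.90, 11.98 and 11.19 in stimulated cells (log2 fold change 6.48). The receptor genes *Cd40* and *Fas* rose by 5.25 and 4.32. *Hbegf* (1.07) was called only with the replicate block, and *Tnfrsf1a* (0.19) and *Vegfa* (−0.62) in neither fit.

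The genes of the LPS-sensing machinery had smaller fold changes than those of the secreted mediators. Of 17 sensors and adaptors 7 rose and 0 fell, with a median of 0.63. *Tlr4*, the LPS receptor, had 9.71, 9.54 and 9.63 before and 8.27, 9.36 and 9.36 after LPS, a log2 fold change of −0.64 ± 0.29, adjusted p = 0.175. A probe set of nearly the same brightness gave −0.95 and passed (adjusted p = 0.0141 over all probe sets, by limma), and 2 dimmer ones gave −0.61 and −0.20 and did not. *Ly96*, which encodes MD-2, had a log2 fold change of 0.23, and *Cd14*, bright throughout, rose by 0.74. Some receptors of other microbial products rose: *Tlr1* (log2 fold change 2.05) and *Tlr6* (log2 fold change 1.53), partners of TLR2, *Tlr3* (log2 fold change 2.72), which senses double-stranded RNA, and *Tlr7* (log2 fold change 1.57), which senses single-stranded RNA. *Tlr5*, *Tlr8* and *Tlr9* were not called, and *Tlr2* was called higher only with the replicate block. Both adaptor genes were higher: *Myd88* had 11.02, 11.56 and 11.12 without LPS and 12.74, 12.69 and 12.84 with it (log2 fold change 1.52) and *Ticam1*, which encodes TRIF, had 7.91, 7.89 and 7.77 in unstimulated and 9.74, 10.09 and 9.24 in stimulated cells (log2 fold change 1.84).

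NF-κB genes and the feedback inhibitors were nearly all higher. In the NF-κB and IκB list 8 of 10 genes rose and 0 fell (median 2.63). *Rel*, the subunit c-Rel, had 7.63, 7.67 and 7.73 before and 10.88, 11.22 and 11.06 after LPS (log2 fold change 3.38 ± 0.19, adjusted p = 1.82e-06), and its arrays lay closely together within each group. *Nfkb2* rose by 3.55, *Relb* by 2.60 and *Rela* by 1.14, and the inhibitors *Nfkbib*, *Nfkbie* and *Nfkbiz* by 2.67, 2.82 and 3.20. *Nfkbia*, which encodes IκBα, was not called on its brightest probe set (13.26, 13.50 and 13.19 without LPS and 13.52, 13.87 and 13.61 with it), which was above 13 on every array. Its 4 other probe sets gave log2 fold changes from 0.57 to 2.44. Those at 1.28, 1.97 and 2.44 passed (adjusted p = 0.0393, 0.0136 and 0.0117 over all probe sets, by limma), and the one at 0.57 did not.

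Of the 13 feedback inhibitors 12 rose and 1 fell, with a median of 2.92. *Tnfaip3*, which encodes the ubiquitin-editing enzyme A20, had 9.88, 10.57 and 10.26 in unstimulated and 13.57, 13.70 and 13.55 in stimulated cells (log2 fold change 3.37 ± 0.23, adjusted p = 8.69e-06). *Socs1*, an inhibitor of JAK kinases, had 4.26, 5.68 and 5.02 before and 9.24, 10.91 and 10.29 after LPS (log2 fold change 5.16), and its relatives *Socs3* and *Cish* rose by 4.87 and 3.69. *Zfp36*, whose product destabilises *Tnf* mRNA, had 10.84, 11.22 and 11.05 without LPS and 12.74, 13.19 and 12.98 with it (log2 fold change 1.93). *Irak3*, the kinase-dead brake on MyD88 signalling, rose by 2.79. The exception was *Sh2b3*, which encodes the adaptor LNK, at 11.11, 11.02 and 11.17 in unstimulated and 9.61, 10.21 and 9.52 in stimulated cells (log2 fold change −1.32 ± 0.25, adjusted p = 0.00512).

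Immediate-early and MAP kinase phosphatase genes included called rises and called falls. Of 13 AP-1, EGR and ATF factors 4 rose and 2 fell (median 0.15), and of 9 MAP kinase phosphatases 3 rose and 2 fell (median 0.25). Beside these, 7.29% of all genes rose and 8.51% fell. *Fos* had 13.04, 13.25 and 12.86 before and 11.28, 9.49 and 10.96 after LPS, a log2 fold change of −2.48 ± 0.42, adjusted p = 0.00246, and *Jun* had 12.07, 12.12 and 11.98 without LPS and 9.70, 11.12 and 10.35 with it (log2 fold change −1.67). *Junb* had 10.43, 10.90 and 10.03 in unstimulated and 12.35, 13.09 and 12.04 in stimulated cells (log2 fold change 2.04) and *Batf* had 7.53, 7.56 and 7.48 before and 10.46, 10.29 and 10.49 after LPS (log2 fold change 2.89), so members of the same dimer family lay on opposite sides. *Dusp2*, *Dusp8* and *Dusp16* rose by 3.93, 0.87 and 3.60, whereas *Dusp6*, which acts on ERK, had 11.45, 10.91 and 12.04 without LPS and 8.68, 7.55 and 9.37 with it (log2 fold change −2.93) and *Dusp7* fell by 1.65. *Dusp1* (0.25) and *Atf3* (0.69) were not called.

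Every measured gene on the list of interferon-stimulated genes was called higher. These 24 genes had log2 fold changes from 1.52 to 6.75 with a median of 4.98, and 23 were called without the dim array. *Oas1f*, which was not on this list, was called lower in ΔTrspM cells. *Gbp3*, an interferon-induced GTPase, had 7.28, 7.43 and 7.85 in unstimulated and 12.64, 13.05 and 13.01 in stimulated cells (log2 fold change 5.38 ± 0.55, adjusted p = 0.000112). *Ifih1*, which encodes the RNA sensor MDA5, had 9.04, 9.36 and 8.96 before and 13.34, 13.41 and 13.44 after LPS (log2 fold change 4.28). *Rsad2*, which encodes the antiviral enzyme viperin, had 8.39, 9.48 and 8.18 without LPS and 13.88, 13.98 and 13.90 with it (log2 fold change 5.24). *Oas1a*, at the low end, had 11.48, 11.88 and 11.31 in unstimulated and 13.08, 13.11 and 13.04 in stimulated cells (log2 fold change 1.52). Upstream, 7 of 16 interferon signalling genes rose and 0 fell (median 0.60): *Irf1* (log2 fold change 3.48), *Irf7* (log2 fold change 4.36), *Stat2* (log2 fold change 3.28), *Jak2* (log2 fold change 2.60), *Tyk2* (log2 fold change 1.69), *Stat3* (log2 fold change 1.58) and *Irf9* (log2 fold change 1.38). *Irf3*, which acts on the interferon-β gene before new transcription, had 10.04, 10.00 and 10.49 before and 10.23, 9.91 and 10.04 after LPS (log2 fold change −0.12) and was not called.

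The calls among antigen processing genes were of immunoproteasome subunits and of genes that move or load peptides. Of the 12 proteasome and peptide transport genes 6 rose and 0 fell (median 0.80). They were the immunoproteasome subunits *Psmb8* (log2 fold change 1.15), *Psmb9* (log2 fold change 2.06) and *Psmb10* (log2 fold change 1.63), the peptide transporter genes *Tap1* and *Tap2* and the loading factor *Tapbp* (log2 fold change 1.05). *Tap1* had 8.63, 8.12 and 8.53 without LPS and 12.40, 12.29 and 12.43 with it (log2 fold change 3.95 ± 0.40, adjusted p = 9.37e-05). The standard catalytic subunits *Psmb5*, *Psmb6* and *Psmb7* had log2 fold changes between −0.19 and 0.19, none of them called, and *Psme1*, an activator subunit, was called with the block alone.

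**Figure D2:**
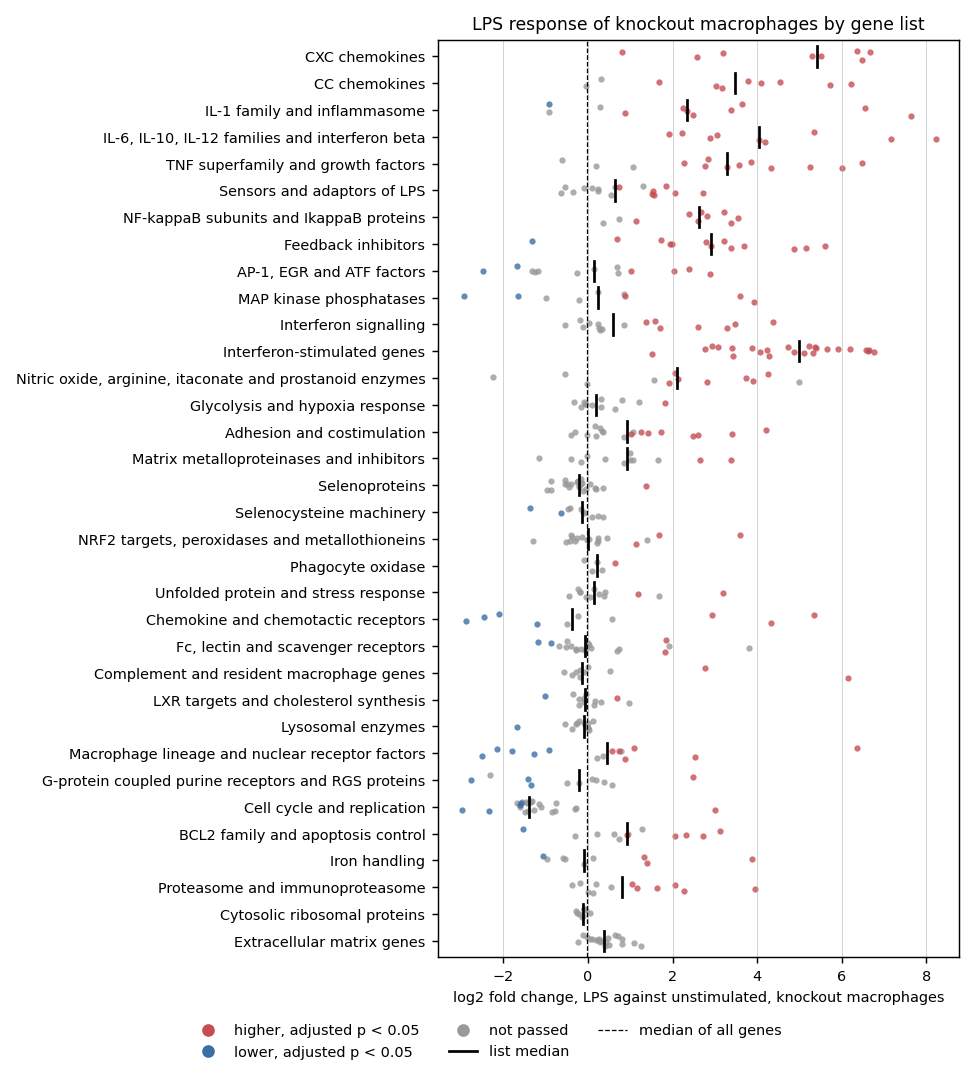
Log2 fold change between LPS-stimulated and unstimulated ΔTrspM macrophages (horizontal axis) of the measured members of the 34 pathway lists (rows); each point is a gene, red where called higher, blue where called lower and grey where not called, with the list median as a black bar and the median of all 18193 genes as a dashed line. The CXC chemokines (median 5.41) and interferon-stimulated genes (4.98) lie farthest to the right, and the cell cycle list (−1.39) lies farthest to the left.

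Enzymes that make inflammatory mediators rose in part. In the nitric oxide, arginine, itaconate and prostanoid list 7 of 12 genes were higher (median 2.10), and 5 were without the dim array. *Ptgs2*, which encodes cyclooxygenase-2, had 10.05, 9.11 and 9.68 in unstimulated and 13.80, 13.98 and 13.82 in stimulated cells (log2 fold change 4.26 ± 0.25, adjusted p = 2.23e-06), and *Ptges*, which acts after it to make prostaglandin E, rose by 3.89. *Nos2*, the inducible nitric oxide synthase, had 4.39, 4.41 and 4.58 before and 5.51, 9.42 and 9.67 after LPS (log2 fold change 3.74 ± 0.87, adjusted p = 0.014); replicate 1 after LPS lay about 4 log2 units under the other 2. *Arg2* rose by 2.82 and *Slc7a2*, an arginine transporter, by 2.12. *Acod1*, the itaconate enzyme, had 6.92, 10.70 and 8.02 without LPS and 13.29, 13.88 and 13.46 with it and was called only with the replicate block (adjusted p = 0.0219 with the block). *Arg1* had 11.01, 9.07 and 12.07 in unstimulated and 9.84, 5.55 and 10.02 in stimulated cells and was likewise called, as lower, only with the block (adjusted p = 0.017 with the block).

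Of 12 glycolysis and hypoxia genes 1 was called higher, near the 7.29% of all genes: *Pfkfb3*, a regulator of phosphofructokinase, at 8.86, 9.30 and 9.44 before and 10.91, 11.33 and 10.81 after LPS (log2 fold change 1.82 ± 0.43, adjusted p = 0.0158), and 0 without the dim array. With the block 4 were called higher, *Hk2*, *Pfkp* and *Slc16a3* in addition. The median was 0.20. *Ldha*, *Pgk1* and *Pkm* were above 13 on every array, at log2 fold changes of −0.10, −0.16 and −0.05.

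On the cell surface, 8 of 18 adhesion and costimulation genes rose and 0 fell (median 0.93), and 5 rose without the dim array. *Vcam1*, the ligand of the integrin α4β1, had 7.04, 6.92 and 8.20 without LPS and 11.72, 11.34 and 11.69 with it (log2 fold change 4.20 ± 0.36, adjusted p = 3.68e-05), and its other probe sets gave 3.23 and 3.30. *Icam1*, the ligand of LFA-1, had 11.05, 11.50 and 11.29 in unstimulated and 14.06, 13.63 and 13.94 in stimulated cells (log2 fold change 2.59). *Cd274*, which encodes PD-L1, rose by 3.41, and the costimulatory genes *Cd86* and *Cd80* by 2.48 and 1.42. *H2-Eb1*, a class II antigen presentation gene, showed how the replicates differed: it had 10.22, 12.41 and 8.93 before and 11.27, 12.76 and 10.06 after LPS, with replicate 2 highest under each condition. It was not called without the block (log2 fold change 0.84 ± 1.08, adjusted p = 0.672) and was called with it (adjusted p = 0.012 with the block).

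Chemotactic receptors went both ways, with 3 of 10 higher and 4 lower (median −0.36). *Ccrl2*, a chemerin-binding receptor, had 7.72, 7.94 and 7.86 without LPS and 12.91, 13.33 and 13.27 with it (log2 fold change 5.33 ± 0.22, adjusted p = 2.12e-07), the smallest adjusted p of the list. *Ccr7*, which guides cells to lymph nodes, had 5.33, 5.56 and 4.38 in unstimulated and 8.69, 8.13 and 7.22 in stimulated cells (log2 fold change 2.93), and *Fpr2*, a formyl peptide receptor, rose by 4.33. *Cx3cr1*, the fractalkine receptor, had 12.92, 12.58 and 12.07 before and 10.47, 9.19 and 10.59 after LPS (log2 fold change −2.45), *Cxcr4* had 12.32, 11.59 and 11.90 without LPS and 8.95, 10.32 and 7.87 with it (log2 fold change −2.89), and the monocyte receptor *Ccr2* and its relative *Ccr1* fell by 2.10 and 1.20. Without the dim array or without unstimulated replicate 2, 2 of the 4 falls were called.

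Among 19 Fc, lectin and scavenger receptors 2 rose and 2 fell, beside 7.29% and 8.51% of all genes, with 4 and 3 called under the block (median −0.07). *Fcgr2b*, the inhibitory Fc receptor, had 11.14, 11.38 and 12.28 in unstimulated and 13.16, 13.57 and 13.54 in stimulated cells (log2 fold change 1.82 ± 0.36, adjusted p = 0.00624) and *Fcgr4* rose by 1.84. The haemoglobin scavenger receptor gene *Cd163* fell by 0.86 and *Scarb1*, the HDL receptor, by 1.17; neither fall was called without unstimulated replicate 2. *Marco*, a receptor of unopsonized particles, had 6.63, 8.79 and 4.40 before and 10.06, 11.65 and 9.52 after LPS and was called only with the block (adjusted p = 0.00531 with the block).

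In the complement list 2 of 10 genes rose, beside 7.29% of all genes: *Cfb*, factor B of the alternative pathway, had 4.34, 5.85 and 4.78 without LPS and 11.25, 11.44 and 10.73 with it (log2 fold change 6.15 ± 0.78, adjusted p = 0.000463), and *Timd4*, a phosphatidylserine receptor, rose by 2.78. The 3 genes of C1q stayed above 12.5 on every array and were not called. Of the matrix metalloproteinases and their inhibitors, 2 of 12 rose, beside the same 7.29%: the collagenase gene *Mmp13* had 10.84, 10.63 and 11.01 in unstimulated and 13.40, 13.51 and 13.49 in stimulated cells (log2 fold change 2.64 ± 0.23, adjusted p = 4.29e-05) and *Mmp14*, which encodes a membrane-bound enzyme, had 8.89, 10.36 and 9.09 before and 12.94, 13 and 12.54 after LPS (log2 fold change 3.38). *Timp3*, an inhibitor, had 9.65, 7.15 and 9.68 without LPS and 9.99, 8.92 and 10.14 with it (log2 fold change 0.86 ± 0.83, adjusted p = 0.563).

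Transcription factors of the macrophage lineage went both ways, with 6 of 14 higher and 5 lower (median 0.46). *Nr4a3*, an orphan nuclear receptor, had 4.94, 4.88 and 4.90 in unstimulated and 11.61, 10.91 and 11.30 in stimulated cells (log2 fold change 6.37 ± 0.31, adjusted p = 9.06e-07). This rests on its brightest probe set. The others, dim at mean log2 signals of 5.39 and 5.09, gave −0.06 and 0.31 and did not pass. *Cebpd* had 10.02, 10.59 and 9.74 before and 12.64, 12.75 and 12.56 after LPS (log2 fold change 2.54), whereas its relative *Cebpa* had 11.97, 11.85 and 12.16 without LPS and 10.07, 10.67 and 9.82 with it (log2 fold change −1.80). *Pparg*, the lipid-sensing nuclear receptor, had 9.66, 9.58 and 8.48 in unstimulated and 6.27, 7.33 and 6.62 in stimulated cells (log2 fold change −2.50), and *Mef2c*, *Klf4* and *Klf2* fell by 2.15, 1.28 and 0.91. *Spi1*, which encodes the lineage factor PU.1, rose by 0.73 and was not called without the dim array. In the purine receptor and RGS list 1 of 11 rose and 3 fell, beside 7.29% and 8.51% of all genes (median −0.21): *P2ry14* rose by 2.48, and *P2rx7*, the ATP-gated channel, *P2ry6*, a receptor of UDP, and *Rgs18* fell by 1.43, 1.34 and 2.77.

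Cell cycle genes were lower in most cultures, and the number called depended on whether the replicate number was a block. In the fit without the block 1 of 23 was higher and 4 were lower, beside 7.29% and 8.51% of all genes. With the block 1 was higher and 19 were lower. The median log2 fold change was −1.39. *Myc* had 11.04, 11.21 and 10.78 before and 8.80, 8.39 and 8.83 after LPS (log2 fold change −2.34 ± 0.32, adjusted p = 0.000792), *Ccnd1*, cyclin D1, had 13.31, 12.98 and 13 without LPS and 10.79, 9.35 and 10.21 with it (log2 fold change −2.98), and *E2f1* and *Mcm2* were the other falls in both fits (−1.59 and −1.60). *Ccnd2*, cyclin D2, went the other way, at 9.39, 7.97 and 9.86 in unstimulated and 12.73, 11.11 and 12.39 in stimulated cells (log2 fold change 3.00). *Rrm2*, a ribonucleotide reductase subunit, had 12.25, 10.87 and 12.68 before and 10.62, 9.41 and 11.11 after LPS: it fell in all 3 cultures, yet unstimulated replicate 2 lay at the level of the LPS arrays of the others. Its adjusted p was 0.263 without the block and 0.00249 with it. *Mki67*, *Top2a* and *Pcna* were called in neither fit, although a dimmer probe set of *Top2a* gave −1.82 and passed without the block (adjusted p = 0.0303 over all probe sets, by limma). *Mcm3*, called with the block alone, had a dimmer probe set that passed without it (−1.15, adjusted p = 0.019 over all probe sets, by limma). The dimmer probe sets of *E2f1* (−0.50 and −0.58) and *Mcm2* (−1.91) did not pass. In the promoters, 14 of the 17 cell cycle genes with an entry held the letters CCAAT on either strand, against 39.4% of the 14452 tested genes with an entry, and 0 held the κB letters or the response element core.

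**Figure D3:**
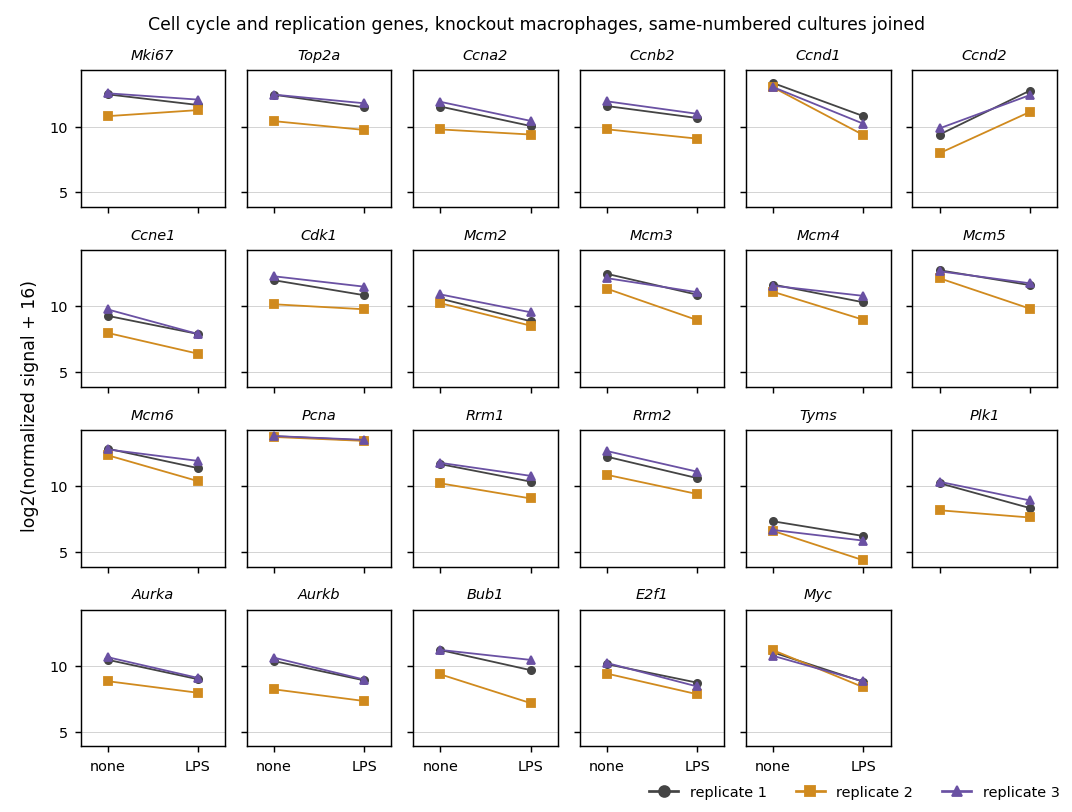
Log2 signal (vertical axis, log2 of normalized signal plus 16) of the 23 measured cell cycle and replication genes in unstimulated and LPS-stimulated ΔTrspM macrophages, with lines joining same-numbered cultures and a panel for each gene. Replicate 2 starts lower for most of the genes, as for *Rrm2* (10.87 against 12.25 and 12.68), and the lines run downward in all 3 cultures for most genes other than *Ccnd2*.

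Apoptosis control and iron genes held a few strong members. Of the 12 genes of the BCL2 family and apoptosis control 5 rose and 1 fell, beside 7.29% and 8.51% of all genes (median 0.93). *Cflar*, which blocks caspase-8, had 9.99, 10.34 and 10.22 without LPS and 12.88, 12.96 and 12.87 with it (log2 fold change 2.72 ± 0.26, adjusted p = 7.86e-05), *Gadd45b* rose by 3.13 and the inhibitor of apoptosis genes *Birc3* and *Birc2* by 2.32 and 2.07. The other rise was *Bbc3*, which promotes apoptosis, and it was not called without the dim array. *Bcl2l11*, another gene that promotes apoptosis, was called higher only with the block. Its dimmer probe sets passed without the block, at log2 fold changes from 1.01 to 2.40 (adjusted p from 0.000217 to 0.0177 over all probe sets, by limma). *Bcl2* itself had 9.12, 8.61 and 9.44 in unstimulated and 7.53, 7.37 and 7.66 in stimulated cells (log2 fold change −1.54). Of 9 iron genes 3 rose and 1 fell, with 3 and 3 under the block (median −0.09): *Lcn2*, which binds bacterial siderophores, had 8.47, 8.06 and 8.45 before and 12.14, 12.37 and 12.11 after LPS (log2 fold change 3.88 ± 0.35, adjusted p = 5.61e-05), the hormone gene *Hamp* rose by 1.39 and the iron transporter gene *Slc11a2* by 1.33. *Aco1*, an iron-regulatory protein, fell by 1.07 and was not called without the dim array.

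The transcripts of selenoproteins, whose protein products ΔTrspM cells are built to lack, gave 1 call. Of 23 measured 1 rose and 0 fell, beside 7.29% and 8.51% of all genes, with a median log2 fold change of −0.21 against −0.03 for all genes (0 and 3 with median centring, 0 and 4 with no scaling). The rise was *Selenow*, a small selenoprotein with a redox motif, at 10.22, 10.00 and 10.19 without LPS and 12.13, 11.07 and 11.35 with it (log2 fold change 1.38 ± 0.28, adjusted p = 0.00732), and its other probe set gave 1.77. With median centring in place of quantile normalization it was not called. *Txnrd1*, the cytosolic thioredoxin reductase, had 13.05, 13.06 and 12.86 in unstimulated and 13.06, 13.49 and 13.02 in stimulated cells (log2 fold change 0.20 ± 0.21, adjusted p = 0.593), and its 2 other probe sets gave 0.15 and 0.65. *Gpx1*, the cytosolic glutathione peroxidase, had 13.01, 13.03 and 13.02 before and 12.66, 12.10 and 12.65 after LPS (log2 fold change −0.55 ± 0.27, adjusted p = 0.209): all 3 LPS arrays were under all 3 unstimulated arrays, the dim array farthest.

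With the replicate block 3 selenoprotein transcripts were called lower as well: *Gpx4*, which protects membrane lipids (log2 fold change −0.53, adjusted p = 0.0489 with the block), *Dio2*, a deiodinase (log2 fold change −0.86, adjusted p = 0.0422 with the block), and *Msrb1*, which repairs methionine sulfoxide. *Msrb1* had 12.33, 12.11 and 12.64 without LPS and 11.68, 10.79 and 11.72 with it (log2 fold change −0.96, adjusted p = 0.00526 with the block). *Selenop*, the secreted selenium carrier, was above 13 on every array and had a log2 fold change of −0.17. Of the 10 genes that make selenocysteine or insert it, 2 were called lower, beside 8.51% of all genes: *Pstk*, which phosphorylates serine on the tRNA, had 8.82, 8.57 and 8.87 in unstimulated and 7.96, 6.45 and 7.73 in stimulated cells (log2 fold change −1.38 ± 0.37, adjusted p = 0.029), and *Secisbp2l*, a relative of the SECIS-binding protein, had 11.50, 11.27 and 11.26 before and 10.66, 10.46 and 11.01 after LPS (log2 fold change −0.64 ± 0.18, adjusted p = 0.0378). Neither was called without the dim array or with the 6 ΔTrspM arrays fitted alone. Over all probe sets, by limma, those of *Pstk* passed (−1.38 and −0.82, adjusted p = 0.0341 and 0.0418). Those of *Secisbp2l* did not (−0.64 and −0.13, adjusted p = 0.052 and 0.836). *Sephs1* was not called on its brightest probe set, at −0.46. Its dimmer probe sets at −0.93 and −1.28 passed (adjusted p = 0.0203 and 0.0413 over all probe sets, by limma).

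**Figure D4:**
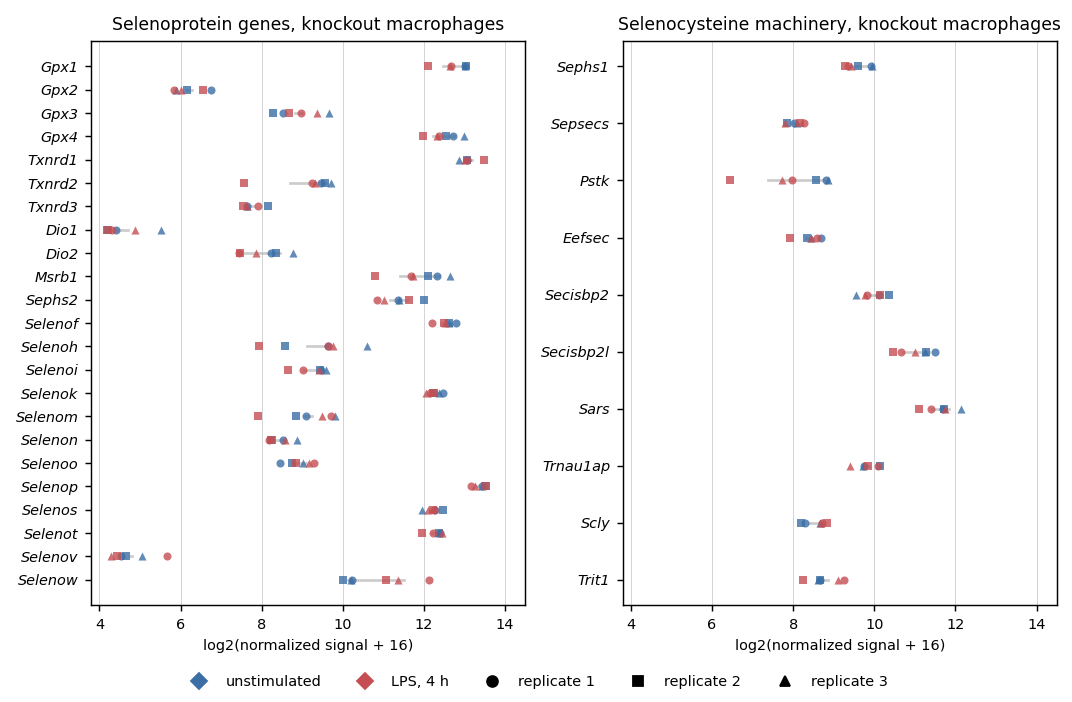
Log2 signal (horizontal axis, log2 of normalized signal plus 16) of the 23 selenoprotein genes and the 10 genes of selenocysteine synthesis and insertion in ΔTrspM macrophages; each symbol is an array, its shape gives the replicate, colour separates unstimulated (blue) from LPS (red), and grey bars join the group means. *Selenow* stands out, from 10.00 to 10.22 without LPS and from 11.07 to 12.13 with it.

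Other redox genes held a few strong members. Of 18 NRF2 targets, peroxidases and metallothioneins 3 rose and 0 fell (median 0.01), beside 7.29% and 8.51% of all genes. *Slc7a11*, the cystine transporter that feeds glutathione synthesis, had 7.89, 9.52 and 8.17 without LPS and 11.82, 12.68 and 11.88 with it (log2 fold change 3.60 ± 0.68, adjusted p = 0.00459). *Mt2*, a metallothionein that binds zinc and copper, had 11.08, 11.06 and 11.02 in unstimulated and 12.95, 12.80 and 12.43 in stimulated cells (log2 fold change 1.67 ± 0.24, adjusted p = 0.00102), and *Keap1*, the inhibitor of NRF2, rose by 1.13. Members that were not called included *Hmox1* (log2 fold change −0.41), *Nqo1* (log2 fold change 0.24), *Gclm* (log2 fold change −0.52) and *Srxn1* (log2 fold change −0.25). *Gclc*, which starts glutathione synthesis, had 12.00, 12.31 and 10.64 before and 10.16, 11.46 and 9.46 after LPS and was called lower only with the block (adjusted p = 0.0156 with the block). *Sod2*, the mitochondrial superoxide dismutase, had 11.97, 13.04 and 11.85 without LPS and 13.66, 13.69 and 13.66 with it on its brightest probe set, which was called higher only with the block (adjusted p = 0.0189 with the block). Its 3 other probe sets passed without the block, at log2 fold changes of 1.63, 2.44 and 3.16 (adjusted p = 0.0384, 0.0251 and 0.028 over all probe sets, by limma). Of 5 phagocyte oxidase genes 1 rose, *Cybb*, the catalytic subunit (12.88, 13.18 and 13.03 in unstimulated and 13.61, 13.74 and 13.66 in stimulated cells, log2 fold change 0.64 ± 0.19, adjusted p = 0.0387), and it was not called without the dim array. Its dimmer probe sets gave 0.99 and 1.48, of which the latter passed over all probe sets (adjusted p = 0.00235, by limma).

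Housekeeping and stress lists held 0 to 2 calls each, beside 7.29% of all genes higher and 8.51% lower. None of the 10 ribosomal protein genes was called in either direction, by limma with or without the block (median −0.11). A dimmer probe set of *Rps3* gave −0.96 and passed (adjusted p = 0.0264 over all probe sets, by limma). Of 13 lysosomal genes 1 fell, *Tfeb*, the transcription factor of lysosome genes, at 9.72, 9.80 and 9.47 before and 7.56, 8.34 and 8.06 after LPS (log2 fold change −1.67 ± 0.25, adjusted p = 0.00124), while the cathepsin genes *Ctsb*, *Ctsd* and *Ctss* stayed above 13 on every array. *Ctsc* was not called on its brightest probe set, at 0.11. Its dimmer probe sets gave 1.60 and 1.84 and passed (adjusted p = 0.0117 and 0.0057 over all probe sets, by limma). Of 13 unfolded protein and stress genes 2 rose: *Ppp1r15a*, which restores translation after stress, at 8.56, 9.07 and 9.21 without LPS and 12.06, 12.32 and 12.03 with it (log2 fold change 3.19 ± 0.27, adjusted p = 3.52e-05), and *Herpud1* (log2 fold change 1.18). In the cholesterol list 1 of 12 rose and 1 fell: *Sqle*, squalene epoxidase, had 11.38, 11.29 and 11.35 in unstimulated and 10.47, 10.18 and 10.31 in stimulated cells (log2 fold change −1.02 ± 0.25, adjusted p = 0.018), and *Srebf2*, the transcription factor of sterol synthesis, rose by 0.68; neither was called without the dim array.

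Markers of other cells gave single calls, too few to set against the 7.29% and 8.51% of all genes. Of 10 neutrophil genes *Camp*, an antimicrobial peptide gene, was called higher (8.73, 6.99 and 7.67 before and 10.25, 8.84 and 9.30 after LPS, log2 fold change 1.67 ± 0.45, adjusted p = 0.0279), and *S100a8* was with the block alone; neutrophils also use *Lcn2*, and their part in its rise was not tested. Of 7 endothelial genes *Kdr* and of 7 dendritic cell genes *Ccr7* was called higher, and of 5 red cell genes *Hba-a1* was called lower. No gene of the T, B and NK cell list or of the mast cell and basophil list was called, by limma with or without the block.

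Extracellular matrix genes gave no call for LPS in ΔTrspM macrophages. Of 20 measured 0 were higher and 0 lower, beside 7.29% and 8.51% of all genes (1 higher, *Lum*, with the block), and their median was 0.37. With so few genes these counts do not set the list apart from all genes. *Col1a1*, the type I collagen chain, had 9.85, 7.31 and 10.18 without LPS and 9.64, 9.23 and 10.38 with it (log2 fold change 0.64 ± 1.00, adjusted p = 0.739). *Bgn*, the proteoglycan biglycan, had 9.75, 7.42 and 10.66 in unstimulated and 10.31, 9.22 and 10.72 in stimulated cells (log2 fold change 0.81 ± 0.84, adjusted p = 0.593), and *Ccn2*, a matricellular growth factor, had 11.85, 9.24 and 11.91 before and 11.61, 9.45 and 11.22 after LPS (log2 fold change −0.24). Replicate 2 was the lowest array under each condition for these 3 genes and for *Tagln* and *Cdh11*, and the sign of *Col1a1*, *Bgn* and *Tagln* turned when unstimulated replicate 2 was left out. Stromal markers moved with the matrix genes by replicate: their summed log2 signal ranged from 11.28 to 13.83 without LPS and from 12.29 to 13.87 with it, and 1 of 12, *Pdgfrb*, was called (log2 fold change 2.99). The lowest sum under each condition was that of replicate 2. Their part in the matrix values was not tested.

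The LPS response of control macrophages, on 6 other arrays, gave 1290 genes higher (7.09%) and 1554 lower (8.54%). Of the genes called higher, 983 were shared, 74.1% of the ΔTrspM list and 76.2% of the control list, and of those called lower 1142 were, 73.8% and 73.5%. Across the 2874 genes called in ΔTrspM cells the log2 fold changes of the genotypes correlated at r = 0.965, a description across genes, which are not independent replicates and were picked by their ΔTrspM values; over all 18193 genes r was 0.866. Over genes called in both, the median ratio of the ΔTrspM to the control log2 fold change was 0.966. A call in ΔTrspM cells alone (745 genes) did not show a difference: 689 of them went the same way in control cells, and 0 passed the test of the difference.

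That test of the difference between the 2 responses called 0 of 18193 genes (0%). At an unadjusted p under 0.05 it gave 555 genes (3.05% of those tested), 308 with the more positive and 247 with the more negative response in ΔTrspM cells, and with the replicate block 791 genes and 0 calls. The lowest adjusted p was 0.0766. For *Tnf*, *Il1b*, *Cxcl1* and *Cxcl2*, cytokines that were also followed by other methods, the differences were −0.35 (95% interval −1.61 to 0.90), 1.33 (95% interval −0.57 to 3.23), 0.61 (95% interval −0.78 to 2.00) and −0.01 (95% interval −2.41 to 2.39) (ΔTrspM response minus control response). The difference for *Il6* was 0.84 (95% interval −0.42 to 2.09). The intervals come from the fit without the block, which leaves the pairing of cultures out, and they are wide. That of *Cxcl2* holds a response 4-fold larger and one 4-fold smaller than in control cells.

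Interferon-stimulated genes rose by a median of 4.98 in ΔTrspM and 3.84 in control cells, and 0 of the 24 differences had an unadjusted p under 0.05. The unstimulated control group held an array with these genes already high: *Mx1* was at 6.13, 10.82 and 6.58 in unstimulated control replicates 1, 2 and 3 and at 13.84, 13.44 and 13.54 after LPS. Without unstimulated control replicate 2 the control median was 5.36, and the median difference turned from 0.80 to −0.18.

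**Figure D5:**
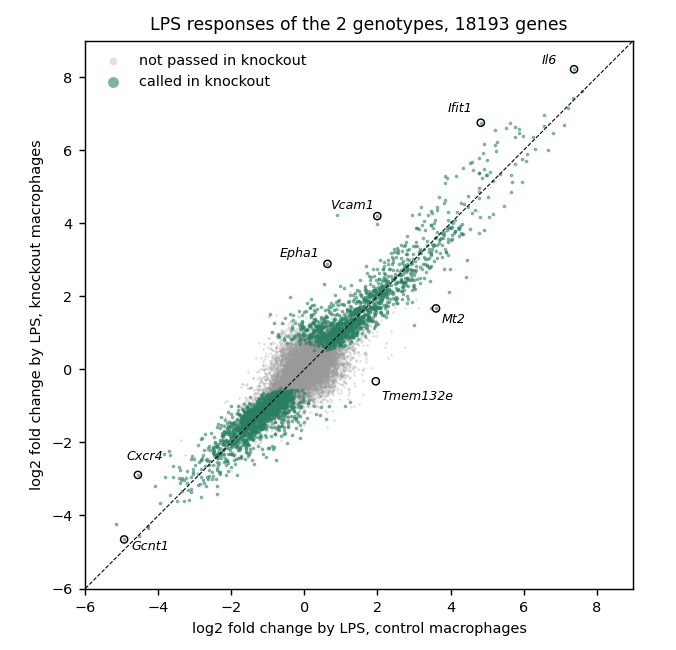
Log2 fold change by LPS in control (horizontal axis) and ΔTrspM macrophages (vertical axis) for 18193 genes; each point is a gene, green where called in ΔTrspM cells, the dashed line marks equal responses, and 8 genes are circled. Points lie along the line, and *Vcam1* (4.20 against 2.00) and *Mt2* (1.67 against 3.60) lie off it, although no difference passed the test.

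The genes with the smallest unadjusted p of the difference, none of which passed, were mostly dim. The *Epha1* gene, an ephrin receptor, had 4.32, 4.63 and 4.41 without LPS and 7.60, 7.45 and 6.98 with it, and 5.46, 4.96 and 4.88 without and 6.02, 5.61 and 5.56 with LPS in control cells, a difference of 2.26 ± 0.34, unadjusted p = 3.21e-05, adjusted p = 0.169. *Gm26844* had 4.13, 4.24 and 4.22 in unstimulated and 5.90, 5.21 and 6.07 in stimulated cells and 5.13, 5.49 and 5.38 without and 4.29, 4.43 and 4.42 with LPS in control cells (2.49 ± 0.32, unadjusted p = 8.42e-06, adjusted p = 0.0766), and *4930480K15Rik* had a difference of 1.52. In the other direction *Tmem132e* had 4.73, 4.86 and 5.07 before and 4.65, 4.53 and 4.50 after LPS and 4.79, 4.59 and 5.02 without and 6.47, 6.82 and 6.96 with LPS in control cells (−2.28 ± 0.28, unadjusted p = 4.83e-06, adjusted p = 0.0766), and its sign in ΔTrspM cells turned when its probe sets were averaged. *Fibcd1* and *Muc16* had differences of −2.16 and −1.69. Except for *Epha1* and *Tmem132e*, none of these 6 genes exceeded 6.55 on any array. *Gm26844*, *Fibcd1*, *Muc16* and *Oas1f* were the 4 genes called in opposite directions in the 2 genotypes.

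Of the 503 measured genes of the pathway and marker lists, 5 (0.994%) had an unadjusted p under 0.05 for the difference, against the 3.05% of all genes: *Mt2*, *Vcam1*, *Klf1*, *Ptgs2* and *Cxcr4*, of which *Klf1* is a dim red cell gene. They were chosen after their values were seen. *Mt2* had 8.93, 9.06 and 9.63 without and 12.78, 13.14 and 12.52 with LPS in control cells against 11.08, 11.06 and 11.02 without LPS and 12.95, 12.80 and 12.43 with it in ΔTrspM cells, a difference of −1.93 ± 0.34, unadjusted p = 0.000142, adjusted p = 0.369. The LPS arrays of the genotypes overlapped for *Mt2* and the unstimulated ones did not. *Vcam1* had 9.63, 10.18 and 10.63 without and 12.41, 11.80 and 12.22 with LPS in control cells, a difference of 2.20 ± 0.51, unadjusted p = 0.00112, adjusted p = 0.85, and again its unstimulated arrays lay apart, between 6.92 and 8.20 in ΔTrspM cells and between 9.63 and 10.63 in control cells. After LPS the gap was smaller. *Cxcr4* fell by 2.89 in ΔTrspM and by 4.56 in control cells (1.67 ± 0.68, unadjusted p = 0.0312, adjusted p = 0.99997), and *Ptgs2* rose by 4.26 and 5.16 (−0.91 ± 0.35, unadjusted p = 0.0246, adjusted p = 0.99997).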

How the data were processed

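RNA of bone marrow-derived macrophages was measured on 12 Affymetrix whole-genome mouse arrays, 3 for each combination of genotype and stimulus. The deposited values are linear signal intensities of 45101 probe sets, which the authors normalized with Expression Console per the labels and methods; how probes were summarized is not given in those sources, and a brightness has no read depth, so precision rests on 3 arrays a group. Probe sets not naming exactly 1 gene (9160 without and 932 with several symbols) and 64 control probe sets were left out. The rest were quantile normalized, 16 was added, and log2 was taken. The brightest probe set stood for each of 18193 genes. limma 3.58.1 (R 4.3.3) fitted the 4 groups together, with Benjamini-Hochberg adjustment over all genes at 0.05. Tests were checked on simulated data.

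The numbers were taken to pair the cultures: with group means removed, same-numbered ΔTrspM arrays correlated at 0.126, 0.298 and 0.216, against at most 0.0268 for other numbers. A second fit therefore had the number as a block. The alternatives were other scalings, offsets, probe set rules, filters, variance models, samples and tests.

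The 42 gene lists and the cells described were chosen with earlier results of these data known. Genes are named by rule: the 12 largest rises and falls that did not overlap, up to 4 members of each pathway list with the smallest p, the 3 differences of smallest p in each direction, genes the study measured by other means, and *Lyz2*. Other list members named, and the windows of 49 bases, were chosen after their values were seen.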

Additional observations from a re-analysis of the deposited data

How the results depend on the processing

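The numbers of rises and falls called in ΔTrspM cells depended on the processing. Testing all probe sets gave 2142 higher and 2361 lower. No scaling gave 262 and 3063, and median centring gave 1303 and 2648. The replicate block, which pairs same-numbered cultures, called 1689 and 2397 and lost 10 of the rises and 5 of the falls. The methods' t-test on the same values called 758 and 618 after Benjamini-Hochberg adjustment and 1065 and 1112 at their threshold of 0.01. Leaving out 1 array in turn gave 908 to 1362 rises and 801 to 1699 falls. The remaining alternatives stayed within 1.5 times of the counts reported. The difference between the genotypes' responses had 0 calls in the fit reported, 3 with an offset of 1 (*Fibcd1*, *Gm26844* and *Tmem132e*, all dim) and 0 to 1 when an array was left out; the 1 was *Gm26844*, without LPS-stimulated ΔTrspM replicate 2. The cause of these shifts was not tested.

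Of 171 genes named by rule 130 were called, and 50 of those lost the call or turned under at least 1 alternative other than leaving out an array. Counted separately, 15 did when an array was left out. Of called genes, *Keap1* (−0.018) and *Srebf2* (−0.48) turned, both with no scaling. Of genes not called, no scaling turned *Hk2* to −0.033, *Pfkp* to −0.15, *Ncf1* to −0.22, *Rac2* to −0.61, *Fcna* to −0.77, *Insig1* to −0.26, *Bgn* to −0.40, *Txnrd1* to −0.22, *Col1a1* to −0.60, *Timp3* to −0.37, *Tagln* to −0.44 and *Lyz2* to −0.018. Median centring turned *Cyba* to 0.30, *Fcna* to −0.061, *Rps19* to 0.046, *Rpsa* to 0.0072, *Rps18* to 0.20, *Rps3* to 0.17 and *Tmem132e* to 0.19. The mean of probe sets turned *Xbp1* to 0.012, *Tmem132e* to 0.35 and *Cdh11* to 0.025. With an array left out, the log2 fold change ran from −0.12 to 1.5 for *Bgn*, from −0.27 to 1.17 for *Col1a1*, from −1.12 to 0.42 for *Ccn2*, from −0.27 to 1.34 for *Tagln* and from −0.97 to 0.90 for *Cdh11*. Of 197 called genes on the lists, 16 were not called with median centring, among them *Selenow*, *Keap1*, *Herpud1*, *Fcgr4*, *Cd163*, *Slc11a2* and *Irf9*, and 71 were not with no scaling. Without the dim array of LPS-stimulated replicate 2, calls lost beyond those given in the report included *Nos2*, *Cd14*, *Cd86*, *Fpr2*, *Dusp8*, *Bcl2*, *Mcm2*, *Irf9*, *Oas1a*, *Rgs18* and *Slc11a2*. The replicate block turned none of the named genes and removed no call among them. Signals near the floor or the top of the scale limit what these arrays can show.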
